A study of Mus musculus with 8 samples.

Results

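The coagulation and fibrinolysis genes encode the plasma and vessel wall proteins that form a fibrin clot, limit it and dissolve it. A list of 33 genes was matched to rows of the deposited array table that carry exactly 1 gene symbol, and where a symbol had several rows the brightest row, by its mean in the 8 arrays, was taken. This gave 31 genes of the 22180 genes named in this way. Cpb2, which encodes an inhibitor of fibrinolysis, was not analysed here. Klkb1, which encodes plasma prekallikrein, shares its row with Cyp4v3 and was not used. All 31 genes passed the filter on low values, a mean of at least 2.72 log2, and were among the 16635 genes tested.

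The samples were liver of wild-type C57BL/6 mice, 1 Affymetrix whole-transcript array for each. The labels place non-alcoholic fatty liver disease on all 8 samples: 4 also carry treatment with rilpivirine, a non-nucleoside inhibitor of HIV reverse transcriptase given orally each day at a dose described as equivalent to that of patients, and 4 are the control group. Feeding lasted 3 months, on normal chow or on chow with 60% fat, and the diet of a given sample and the age of the animals are not stated. Nothing in the labels ties each sample to its own mouse, and p-values therefore cover the spread between samples only, which may be technical.

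Array medians lay between 3.33 and 3.45 log2. Rilpivirine replicate 2 stood apart, with a mean correlation with the other arrays of 0.9645 against 0.976 to 0.981 for the other arrays. The mean level of small nucleolar RNAs, a class of short nuclear RNAs, was 8.70 log2 in that sample (highest of the 8) and 7.60 in control replicate 1 (lowest). The hepatocyte marker Alb (albumin) was bright in every sample and averaged 13.25 log2 over the controls and 13.30 over the rilpivirine samples. Others of the list were less bright, such as Apoc3 and Serpina1a, which averaged 7.52 and 8.35 over the 8 arrays. Of 12 markers of megakaryocytes and platelets, which also hold some clotting factors, 9 were measured, 8 were tested and their mean level was 3.61 to 3.98 log2 over all samples.

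Clotting starts when tissue factor in the vessel wall meets factor VII, and proceeds through serine proteases that activate each other on membranes until thrombin cuts fibrinogen into fibrin. Factor XIII links the fibrin strands, antithrombin and protein C hold thrombin in check, and plasmin dissolves the clot. Hepatocytes secrete most of these proteins, and several need vitamin K for a modification of glutamate residues that lets them bind calcium. Endothelial cells supply factor VIII, von Willebrand factor, thrombomodulin and the protein C receptor.

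No coagulation or fibrinolysis gene differed between rilpivirine and control after adjustment over all genes. Of the 31 genes limma called 0 past a Benjamini-Hochberg adjusted p of 0.05, where it called 0% of all genes tested. At an unadjusted p under 0.05, 1 gene was lower with rilpivirine and 0 were higher, 3.23% of the genes. Among all genes tested 5.21% had such a p, 3.21% lower and 2% higher. The groups overlapped in all 31 genes, where 3.04% of all genes tested did not overlap. The median log2 difference, rilpivirine minus control, was -0.09 over the 31 genes and -0.03 over all genes tested. Differences were below 0 in 23 genes and above 0 in 8, or 74.2% below 0, against 56.9% of all genes tested. Brighter genes leaned further below 0: over the 11090 genes at or above the 50th percentile of means the median was -0.06. Over the 30 listed genes among them it was -0.09. The median over the 31 genes was -0.05 after a further quantile normalization, where 21 differences were below 0 and 10 above, and it was -0.10 with arrays centred to a common median.

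The data bounded the differences. For 26 of the 31 genes the 95% interval of the fit lay within 1.5-fold in either direction, 83.9% of them, against 75.4% of all genes tested. The other 5 were F9, F13b, F11, Procr and Serpina10, with largest fold changes inside the interval of 2.03, 1.77, 1.53, 1.52 and 1.60. With 4 arrays per group, their number limits this precision.

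**Figure D1:**
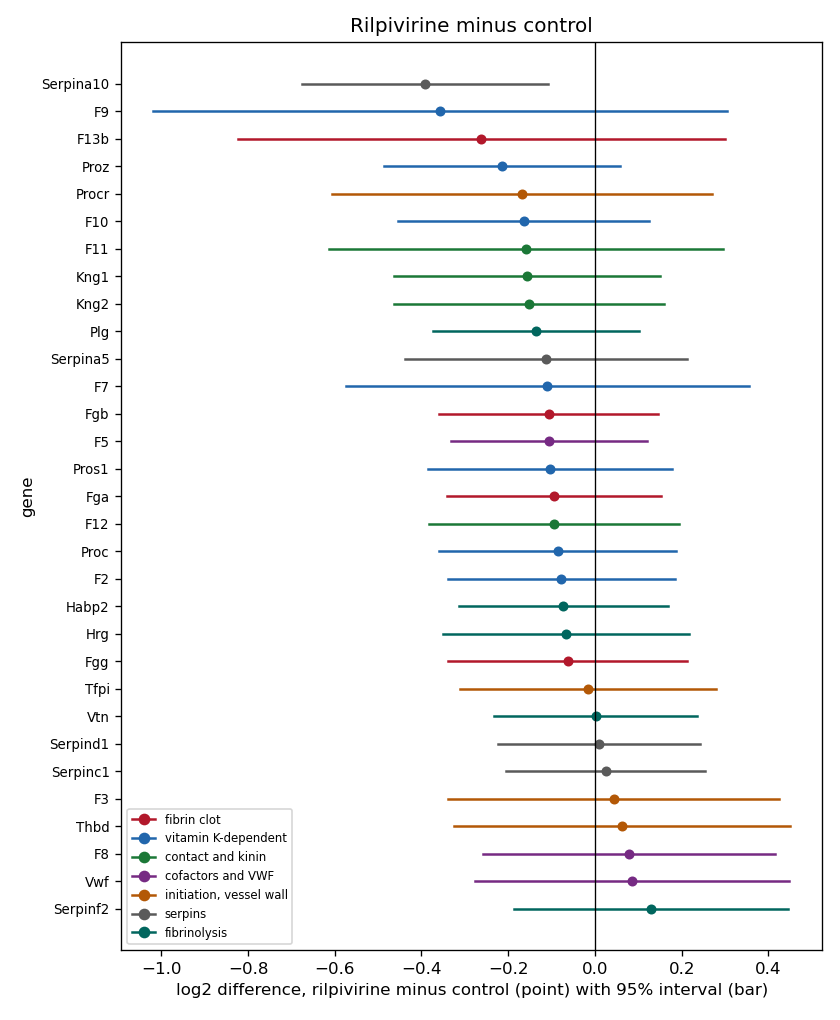
Log2 difference, rilpivirine minus control, for each of 31 genes (points, horizontal axis) with the 95% interval of the limma fit (bars), coloured by role. The interval of Serpina10, from -0.68 to -0.11, is the only one of the 31 that leaves out 0.

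Fibrinogen is the precursor of the clot, a hexamer of pairs of alpha, beta and gamma chains made by neighbouring genes: Fgg, Fga and Fgb follow each other on mouse chromosome 3 with 0 protein-coding genes between them in the RefSeq table. Their promoters are shown because the chains are made from 1 gene cluster and, as given next, shared their highest rilpivirine sample and their lowest control. This was not particular to the chains: rilpivirine replicate 3 was the highest of its group in 13 of the 31 genes. Control replicate 2 was the lowest of its group in 20. The sequences are the 250 bases before each start site from RefSeq (build GRCm38.p6), 5′ to 3′ on the gene's strand. Capitals mark every match on either strand to the HNF1 core (GTTAAT or ATTAAC), the C/EBP motif (TTGCNNAA or TTNNGCAA), the motif of type II interleukin 6 response elements (CTGGGAA or TTCCCAG) and the HNF4 direct repeat (CAAAGGTCA or TGACCTTTG).
Fga, chr3:83025903-83026152, + strand: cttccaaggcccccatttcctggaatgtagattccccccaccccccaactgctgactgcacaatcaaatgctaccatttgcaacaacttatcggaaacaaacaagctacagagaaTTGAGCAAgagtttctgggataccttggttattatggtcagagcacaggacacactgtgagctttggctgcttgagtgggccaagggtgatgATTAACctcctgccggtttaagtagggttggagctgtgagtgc
Fgb, chr3:83049864-83050113, - strand: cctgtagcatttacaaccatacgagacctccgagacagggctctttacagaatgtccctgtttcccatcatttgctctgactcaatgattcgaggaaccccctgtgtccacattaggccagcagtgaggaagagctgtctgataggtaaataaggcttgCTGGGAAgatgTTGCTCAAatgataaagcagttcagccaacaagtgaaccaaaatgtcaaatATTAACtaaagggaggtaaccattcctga
Fgg, chr3:83007474-83007723, + strand: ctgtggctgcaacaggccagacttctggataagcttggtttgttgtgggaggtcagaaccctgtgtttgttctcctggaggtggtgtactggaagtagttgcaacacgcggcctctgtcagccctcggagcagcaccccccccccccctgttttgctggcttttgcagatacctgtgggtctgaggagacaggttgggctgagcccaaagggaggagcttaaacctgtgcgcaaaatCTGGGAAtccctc

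The Fga window held a C/EBP match (TTGAGCAA) and an HNF1 core match (ATTAAC), beginning 135 and 43 bases before the start site. The Fgb window held the interleukin 6 motif, a C/EBP match (TTGCTCAA) and an HNF1 core match, beginning 91, 80 and 29 bases before it, and the Fgg window held the interleukin 6 motif alone, beginning 13 bases before it. Windows were at hand for 27 of the 33 genes. A gene of the list was counted if any of its windows held the motif, while the percentages are shares of single windows, so these measures differ. HNF1 core matches were in 6 of the 27, those of F13b, Fga, Fgb, Habp2, Proz and Vtn, and in 6.43% of 32851 windows of all genes. C/EBP matches were in 10 of the 27 and in 9.56% of all windows, the interleukin 6 motif in 4 of the 27 (F9, Fgb, Fgg and Tfpi) and in 9.10% of all, and the HNF4 repeat in 1 (F7) and in 0.426%. A match describes letters in the window and is not a measured binding site, and the motifs do not overlap in the 3 windows printed.

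For the fibrinogen chains the spread within groups was small and no difference between the groups was found in limma (adjusted p = 0.916, 0.912 and 0.944 for Fga, Fgb and Fgg). Fga, the alpha chain, measured 11.07, 11.07, 11.28 and 10.99 log2 in rilpivirine replicates 1 to 4 and 11.19, 11.10, 11.31 and 11.19 in control replicates 1 to 4. For Fgb, the beta chain, the values were 12.14, 12.25, 12.46 and 12.21 with rilpivirine and 12.43, 12.24, 12.43 and 12.38 in controls. Fgg, the gamma chain, gave 11.82, 11.82, 12.17 and 11.90 with rilpivirine and 12.15, 11.84, 12.01 and 11.95 in controls. In all 3 chains rilpivirine replicate 3 was the highest of its group and control replicate 2 the lowest of its group, and the groups overlapped. The 95% interval of the log2 difference ran from -0.34 to 0.15 for Fga, from -0.36 to 0.15 for Fgb and from -0.34 to 0.21 for Fgg, so that a 1.5-fold change of any chain lay outside its interval.

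F13b encodes the carrier subunit of factor XIII, the transglutaminase that links fibrin. It measured 8.63, 8.33, 9.47 and 9.03 log2 in rilpivirine replicates 1 to 4 and 9.37, 8.53, 9.32 and 9.29 in control replicates 1 to 4. Rilpivirine replicates 1 and 2 and control replicate 2 were low, at 8.63 and below, and the other samples measured 9.03 or more, so that low samples came from both groups. The log2 difference was -0.26 ± 0.25 (SE, n = 4 each; limma adjusted p = 0.904). Without rilpivirine replicates 1 and 2 together it was 0.12.

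The 7 vitamin K-dependent genes (F2, F7, F9, F10, Proc, Pros1 and Proz) had differences below 0, with a median of -0.11 and a range of -0.36 to -0.08, also after centring of the arrays (median -0.11) and a further quantile normalization (median -0.06). Of the 7, 0 had an unadjusted p under 0.05 in limma or passed after adjustment. F9, which encodes factor IX, the protease lacking in haemophilia B, measured 8.42, 8.88, 9.91 and 9.38 log2 in rilpivirine replicates 1 to 4 and 9.66, 9.02, 9.36 and 9.99 in control replicates 1 to 4. Rilpivirine replicate 1 was the lowest of the 8 samples and rilpivirine replicate 3 and control replicate 4 were the highest. The log2 difference of F9 was -0.36 ± 0.30 (SE, n = 4 each; limma adjusted p = 0.898), and without rilpivirine replicate 3 it was -0.61 (unadjusted p = 0.0429, adjusted p = 0.670). Without rilpivirine replicates 1 and 2 together the difference of F9 was 0.14.

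F7, F10 and Proz follow each other on chromosome 8 with 0 protein-coding genes between them in the RefSeq table. F10 encodes factor X, whose active form makes thrombin, and measured 10.09, 9.74, 9.96 and 9.74 log2 in rilpivirine replicates 1 to 4 and 9.95, 9.89, 10.25 and 10.11 in control replicates 1 to 4. Proz encodes protein Z, the cofactor with which the serpin of Serpina10 inhibits active factor X, and measured 9.86, 9.67, 9.86 and 9.53 with rilpivirine and 9.87, 9.83, 10.12 and 9.96 in controls. In both genes control replicate 3 was the highest of the 8 samples and the groups overlapped. The differences were -0.16 ± 0.13 for F10 and -0.21 ± 0.12 for Proz (SE, n = 4 each; limma adjusted p = 0.892 and 0.890). F7 encodes factor VII, the partner of tissue factor, and had means of 9.12 ± 0.42 with rilpivirine and 9.23 ± 0.28 in controls (log2, SD, n = 4 each). Rilpivirine replicate 4 was the lowest sample of F7, at 8.53, and without it the difference of F7 was 0.09 instead of -0.11.

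Prothrombin, the precursor of thrombin, is made by F2. The F2 values were 11.51, 11.17, 11.28 and 11.52 log2 in rilpivirine replicates 1 to 4 and 11.47, 11.36, 11.51 and 11.44 in control replicates 1 to 4. Rilpivirine replicates 1 and 4 lay at the level of the highest control and replicates 2 and 3 below them, for a difference of -0.08 ± 0.12 (SE, n = 4 each; limma adjusted p = 0.931). Proc encodes protein C, which inactivates factors V and VIII, and Pros1 its cofactor protein S. Their differences were -0.09 ± 0.12 and -0.10 ± 0.13 (SE), from control means of 10.08 and 7.68 log2.

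**Figure D2:**
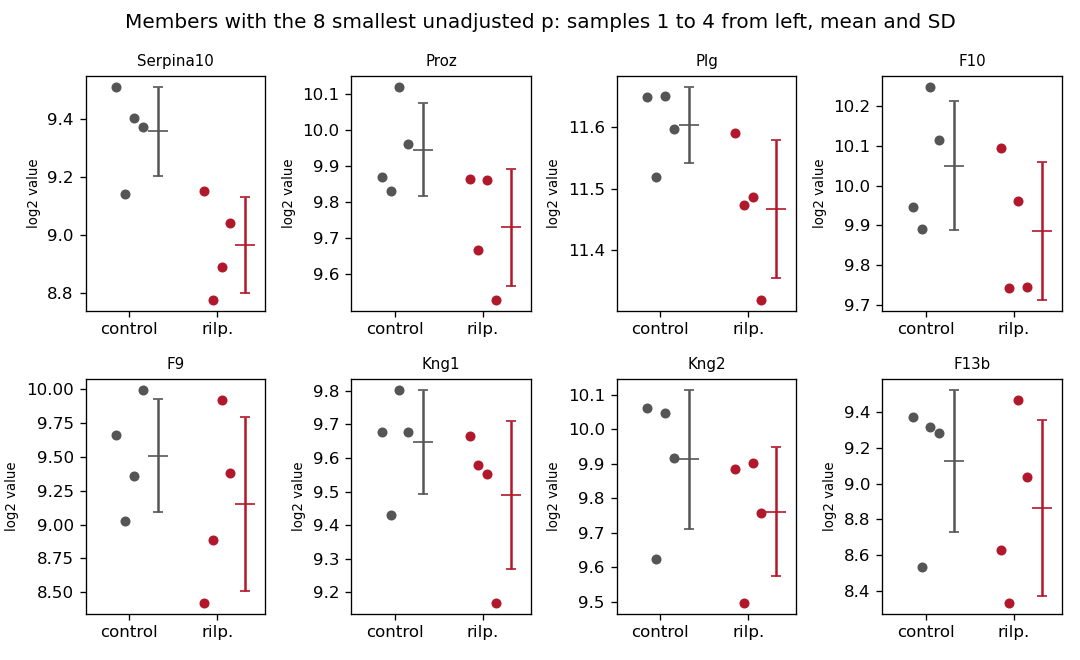
Log2 values of the 8 genes with the smallest unadjusted p, with control samples in grey and rilpivirine samples in red (replicates 1 to 4 from left to right in each group) and the mean and SD beside them. Each panel has its own vertical axis, and in every panel the values of the 2 groups overlap, for Serpina10 only through rilpivirine replicate 1 (9.15) and control replicate 2 (9.14).

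Among the serpins, the protease inhibitors that limit clotting, Serpina10 had the smallest unadjusted p of the 31 genes, and antithrombin and heparin cofactor II were among the genes with the least spread. Serpina10 encodes the protein Z-dependent inhibitor of active factor X. It measured 9.15, 8.77, 8.89 and 9.04 log2 in rilpivirine replicates 1 to 4 and 9.51, 9.14, 9.40 and 9.37 in control replicates 1 to 4. The rilpivirine samples lay below the controls except that control replicate 2 was level with rilpivirine replicate 1. The level was 1.31-fold lower, a log2 difference of -0.39 ± 0.13 (SE, n = 4 each), with an unadjusted p of 0.0111 and an adjusted p of 0.849 in limma. Over the alternative settings the difference stayed below 0 and the adjusted p ran from 0.531 to 0.999. In a fit that also held the level of small nucleolar RNAs, the difference was -0.30.

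Serpinc1 encodes antithrombin, the main inhibitor of thrombin. It measured 11.53, 11.41, 11.45 and 11.50 log2 in rilpivirine replicates 1 to 4 and 11.38, 11.37, 11.53 and 11.50 in control replicates 1 to 4. All 8 values lay close together, and the difference was 0.03 with a 95% interval of -0.20 to 0.25. Serpind1, which encodes heparin cofactor II, had a difference of 0.01 with an interval of -0.22 to 0.24. Serpina5, the gene of the protein C inhibitor, was dim in these arrays, with a control mean of 2.91 ± 0.14 log2 and a rilpivirine mean of 2.80 ± 0.27 (SD, n = 4 each), near the filter value of 2.72.

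The contact and kinin genes F11, F12, Kng1 and Kng2 encode factor XI, factor XII and the kininogens, from which kallikrein releases bradykinin. All 4 had differences below 0, between -0.16 and -0.09, also under both other scalings (medians of -0.16 and -0.09), and 0 of them had an unadjusted p under 0.05 in limma or passed after adjustment. Kng1 measured 9.67, 9.58, 9.55 and 9.17 log2 in rilpivirine replicates 1 to 4 and 9.68, 9.43, 9.80 and 9.68 in control replicates 1 to 4. Kng2 measured 9.88, 9.50, 9.90 and 9.76 with rilpivirine and 10.06, 9.62, 10.05 and 9.92 in controls. Control replicate 2 was the lowest control in both kininogens, while the lowest rilpivirine sample was replicate 4 for Kng1 and replicate 2 for Kng2. Kng1 and Kng2 are close copies that neighbour each other on chromosome 16, so their probe sets may share signal and their values are uncertain as separate measurements. F11 ran from 7.70 to 8.40 with rilpivirine and from 7.66 to 8.49 in controls, and F12 had means of 10.27 ± 0.23 and 10.36 ± 0.07 (SD, n = 4 each). The row shared by Klkb1 and Cyp4v3 had a difference of -0.07, which cannot be assigned to either gene.

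The genes of fibrinolysis had a median difference of -0.07 over the 5 that were measured, with 3 below 0 and 2 above. The direction turned after a further quantile normalization, with a median of 0.02, 2 below 0 and 3 above, and with arrays centred 4 were below and 1 above. Of the 5 genes 0 had an unadjusted p under 0.05 in limma or passed after adjustment. Plg encodes plasminogen, the precursor of plasmin. It measured 11.59, 11.47, 11.49 and 11.32 log2 in rilpivirine replicates 1 to 4 and 11.65, 11.52, 11.65 and 11.60 in control replicates 1 to 4. Replicate 1 of rilpivirine lay among the controls and the other 3 lay below all of them, for a difference of -0.14 with a 95% interval of -0.37 to 0.10 and an adjusted p of 0.892 in limma. Serpinf2, which encodes the plasmin inhibitor alpha 2-antiplasmin, had the highest difference of the 31 genes, 0.13 ± 0.14 (SE, n = 4 each). Rilpivirine replicates 1 and 2 were its highest samples, at 10.97 and 10.96, and control replicate 1 its lowest, at 10.42. Habp2, a protease that can activate factor VII, differed by -0.07. Hrg, a glycoprotein that binds plasminogen, differed by -0.07 as well. Vtn encodes vitronectin, which stabilises the inhibitor of plasminogen activators, and differed by 0.00 with an interval of -0.23 to 0.24.

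The cofactors and the genes of the vessel wall showed no common direction. F5, which encodes the cofactor of active factor X, had a difference of -0.11 and the smallest spread within groups of the 31 genes, an SD of 0.06 log2. The list holds 6 genes of which much of the product is made by the vessel wall, F3 (tissue factor), F8 (factor VIII), Procr (the protein C receptor), Tfpi (the inhibitor of tissue factor), Thbd (thrombomodulin) and Vwf (von Willebrand factor). Their median difference was 0.05, with 2 below 0 and 4 above, against -0.11 for the other 25 genes, a contrast that was not tested. The rilpivirine and control means of Vwf were 4.96 ± 0.16 and 4.87 ± 0.32 log2, those of F8 7.31 ± 0.28 and 7.23 ± 0.16, and those of Thbd 4.89 ± 0.36 and 4.82 ± 0.15 (SD, n = 4 each). F3 had means of 4.61 and 4.56, Tfpi 4.74 and 4.75, and Procr 4.44 and 4.61. The values of F3, Tfpi, Thbd, Procr and Vwf lay between 4.09 and 5.27 in all 8 samples.

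Markers of other cells were read beside these genes, since in whole liver fewer cells of a type and less RNA per cell cannot be told apart. All 14 endothelial markers were measured above 0. Of the 14, 11 were higher with rilpivirine, with a median difference of 0.21 (0.29 after a further quantile normalization). In limma 3 of them had an unadjusted p under 0.05 (21.4%, against 5.21% of all genes tested) and 0 passed after adjustment. The mean level of the 14 markers was 6.97 to 7.25 log2 with rilpivirine and 6.72 to 7.06 in controls. As deviations from the mean of the 8 arrays, rilpivirine replicates 1 and 2 were highest (0.25 and 0.14) and control replicate 1 lowest (-0.28). Rilpivirine replicates 3 and 4, at 0.01 and -0.03, lay within the range of the controls. Replicate 2 of rilpivirine is the array that stood apart. Of 12 hepatocyte markers 11 were measured, 7 were lower and 4 were higher (median -0.07), and their mean level was 11.29 to 11.47 with rilpivirine and 11.38 to 11.60 in controls. In limma 1 of the 11 (9.09%), Pck1, had an unadjusted p under 0.05 (0.0261, adjusted p = 0.890), with a difference of -0.62. Of 10 markers of Kupffer cells, the macrophages of the liver, 9 were lower and 1 was higher, a median of -0.13 (-0.05 after a further quantile normalization). Values of the complement genes C1qa and C1qb did not overlap between rilpivirine and control, with differences of -0.33 and -0.50 and limma adjusted p of 0.855 and 0.777. These were the 2 of the 10 markers without overlap (20%, against 3.04% of all genes tested). They were also the 2 of the 10 with an unadjusted p under 0.05 in limma (20%, against 5.21% of all genes tested). The mean level of the Kupffer markers was 6.96 to 7.46 log2 with rilpivirine and 7.24 to 7.62 in controls. It was highest in control replicates 3 and 4, at 0.29 and 0.24 above the mean of the 8 arrays. These were also the samples where the 31 coagulation genes had their highest mean, and rilpivirine replicates 2 and 4 were lowest in both. This order was not particular to Kupffer markers. Hepatocyte markers were also highest in control replicates 3 and 4 (deviations of 0.17 and 0.06). Their lowest samples were likewise rilpivirine replicates 2 and 4 (-0.14 and -0.13).

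Skeletal muscle markers, of which 9 of 10 were tested, were higher in 8 and lower in 1 (median 0.12), with a mean level of 3.55 to 3.95 log2 with rilpivirine and 3.51 to 3.80 in controls. Several were dim: Myh4, Myl1 and Pvalb averaged 2.83, 2.86 and 3.05 log2, below the array medians of 3.33 to 3.45. The mean level was highest in rilpivirine replicate 2, the array that stood apart. Among the muscle markers the groups did not overlap in 1 of 9 (11.1%, against 3.04% of all genes tested). This was Atp2a1, a calcium pump, with a difference of 0.34. Stellate cell, neutrophil, and cholangiocyte and mesothelial markers had medians of -0.04, 0.06 and -0.01, and the stellate median was 0.06 after a further quantile normalization. The neutrophil median covered 6 of 10 markers, since S100a8, S100a9, Camp and Retnlg fell below the filter. The mean level of those 6 was 3.23 to 3.58 log2 over all samples, near the array medians. Of the 8 megakaryocyte and platelet markers tested 5 were lower and 3 higher (median -0.07). The groups did not overlap in 1 of these 8 (12.5%, against 3.04% of all genes tested). This was Gp9, with a difference of -0.36 (limma unadjusted p = 0.00665, adjusted p = 0.813). It was also the 1 of the 8 with an unadjusted p under 0.05 in limma (12.5%, against 5.21% of all genes tested). In these marker lists limma called 0 genes after adjustment. The part of these shifts in the values of the coagulation genes was not tested.

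**Figure D3:**
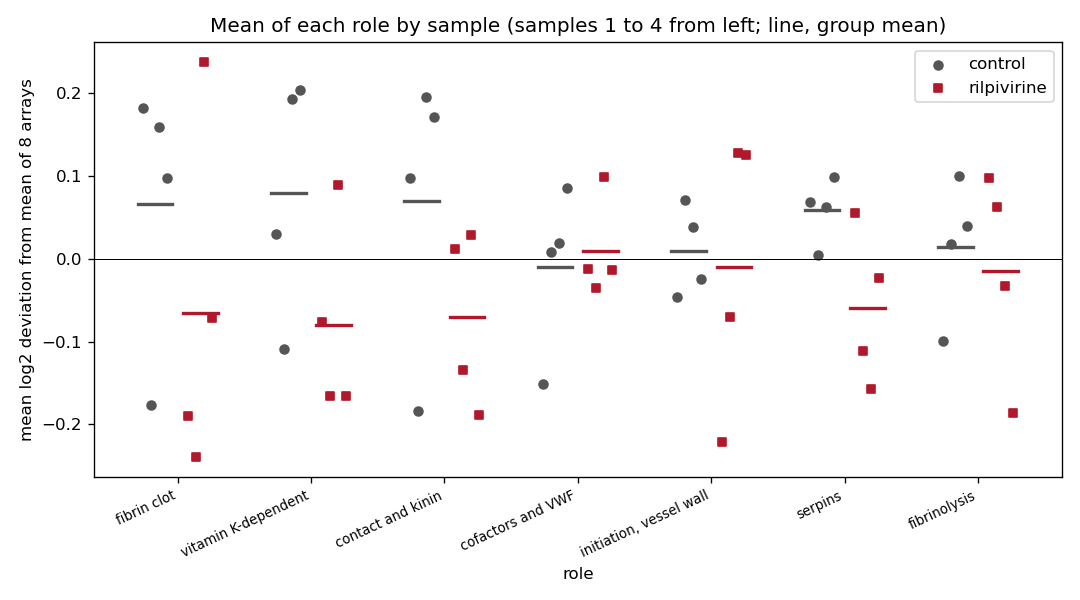
Mean over the genes of each role (horizontal axis) of the log2 deviation from the mean of the 8 arrays (vertical axis), for control samples (grey circles) and rilpivirine samples (red squares), replicates 1 to 4 from left to right, with lines at the group means. Control replicate 2 is the lowest control for the fibrin clot (-0.18), vitamin K-dependent (-0.11) and contact (-0.18) genes, inside the range of the rilpivirine samples.

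High and low values of the genes gathered in certain samples of both groups. Control replicate 2 was the lowest of the 4 controls in 20 of the 31 genes and control replicate 3 the highest in 14. In the rilpivirine group, replicate 4 was the lowest in 11 genes and replicate 2 in 10, while replicate 3 was the highest in 13 and replicate 1 in 12. The mean deviation of the 31 genes from the mean of the 8 arrays was -0.05, -0.10, 0.06 and -0.09 log2 in rilpivirine replicates 1 to 4 and 0.02, -0.06, 0.12 and 0.11 in control replicates 1 to 4. By this mean rilpivirine replicate 3 lay above control replicates 1 and 2. The SD within groups had a median of 0.17 log2 over the 31 genes and of 0.21 over all genes tested. It was highest in F9, at 0.54, above that of 97.2% of the genes tested, and in F13b, at 0.45. The lowest were those of F5 (0.06), Serpinc1 (0.07), Serpind1 (0.08) and Vtn (0.08).

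**Figure D4:**
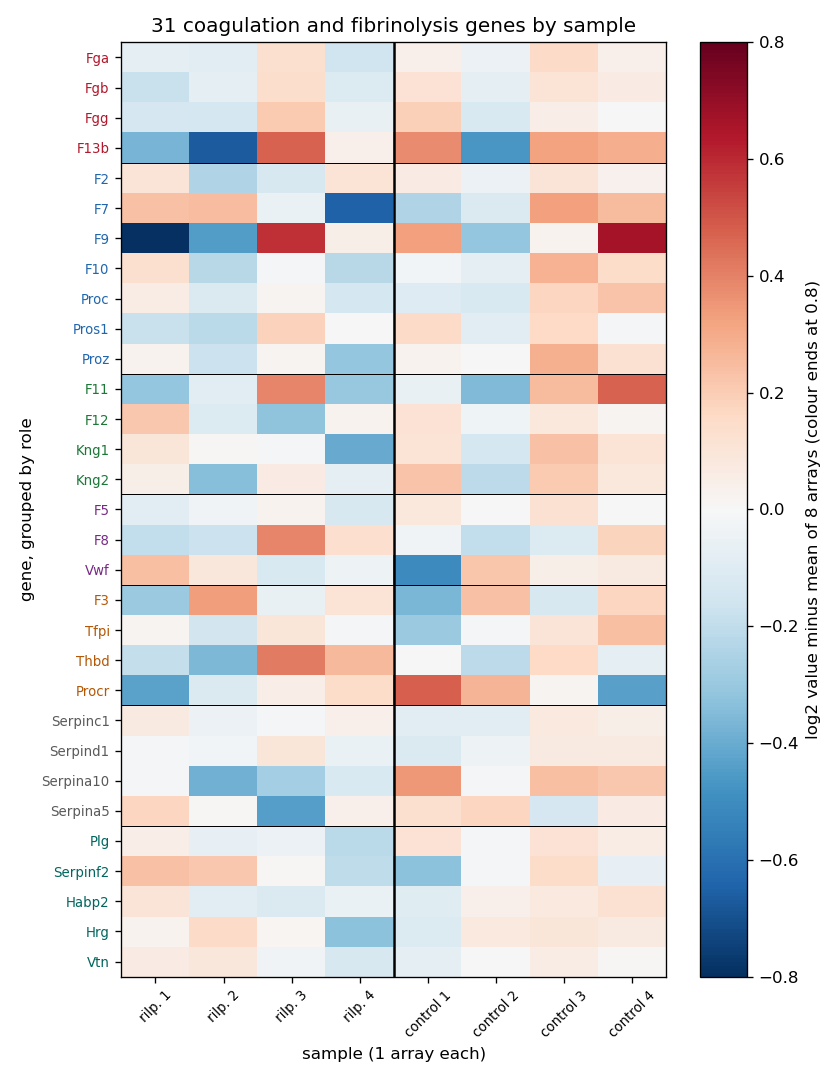
Deviation of each of the 31 genes (rows, grouped by role and coloured by it) from its own mean over the 8 arrays, in log2, for each sample (columns). Colour ends at 0.8 in either direction, so F9 in rilpivirine replicate 1 is at the end of the scale. F9 and F13b are strongly coloured in samples of both groups, and F7 in rilpivirine replicate 4 (8.53 log2).

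Other genes of clotting and fibrinolysis had 11 differences below 0 and 8 above among 19 tested of a list of 23, and 9 below and 10 above after a further quantile normalization. In limma 0 passed after adjustment, and 2 were lower and 0 higher at an unadjusted p under 0.05 (10.5%, against 5.21% of all genes tested). Fgl1, which encodes the fibrinogen-like protein hepassocin, measured 8.79, 9.58, 10.59 and 8.97 log2 in rilpivirine replicates 1 to 4 and 10.92, 9.89, 10.34 and 10.96 in control replicates 1 to 4. Rilpivirine replicate 3 lay among the controls and the other rilpivirine samples below all of them, for a 2.06-fold lower level (log2 difference -1.04 ± 0.37, SE, limma adjusted p = 0.855). Serping1, which encodes the C1 inhibitor that also blocks factor XII and kallikrein, had a rilpivirine mean of 10.91 ± 0.10 log2 and a control mean of 11.17 ± 0.09 (SD, n = 4 each). The groups did not overlap in Serping1, and its difference was -0.26 ± 0.11 (SE, limma adjusted p = 0.890). It was the 1 gene of the 19 without overlap (5.26%, against 3.04% of all genes tested). Gas6, a vitamin K-dependent ligand of receptor kinases, had a difference of -0.54 ± 0.30 (SE, limma adjusted p = 0.890).

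The vitamin K cycle and the secretion of clotting factors were covered by 8 tested genes of a list of 9, with 6 differences below 0 and 2 above and a median of -0.22. In limma 0 passed after adjustment, and 1 was lower and 0 higher at an unadjusted p under 0.05 (12.5%, against 5.21% of all genes tested). That gene was Furin, a protease that removes propeptides, with a difference of -0.29 ± 0.13 (SE). Mcfd2, part of the receptor that carries factors V and VIII out of the endoplasmic reticulum, had a difference of -0.26 ± 0.15, and the calcium-binding protein gene Calu one of -0.38 ± 0.25 (SE). The carboxylase Ggcx, which makes the calcium-binding residues, and the vitamin K reductase Vkorc1 had differences of 0.20 ± 0.14 and -0.18 ± 0.13 (SE).

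Transcription factors of hepatocytes had 8 differences below 0 and 2 above among 10 tested of a list of 11, with a median of -0.10 (-0.03 after a further quantile normalization). In limma 0 passed after adjustment, and 1 was lower and 0 higher at an unadjusted p under 0.05 (10%, against 5.21% of all genes tested). Stat3, which carries the interleukin 6 signal to the nucleus, had a difference of -0.30 ± 0.12 (SE), Cebpb, a C/EBP factor of the acute phase, one of -0.47 ± 0.26, and Nr1h4, the bile acid receptor FXR, one of -0.33 ± 0.20 (SE). Hnf4a, a main regulator of hepatocyte genes, averaged 9.71 ± 0.13 log2 over the rilpivirine samples and 9.79 ± 0.05 over the controls (SD, n = 4 each).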

How the data were processed

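The table deposited by the authors gives log2 values of 41345 probe sets in 8 samples. They came from RMA (background correction, quantile normalization, summary of probes) and limma was also named, per the submitters' processing notes; for versions and genome build, none was given in the sources used here. Differences in total signal are lost in RMA. Labelling used 300 ng of RNA per sample, per the labels.

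Of the probe sets 23521 had 1 gene symbol in the platform annotation and 1814 had several. The gene list, the roles and the alternatives were chosen with earlier results of these data known. All genes of the list are named, with the value in every sample for the 8 with the smallest unadjusted p and for Fga, Fgb, Fgg, F2, Plg and Serpinc1, and the 3 smallest p of each other list of pathway genes; Vkorc1, Ggcx, Hnf4a and the markers named were added after their values were seen. Levels of different genes are not compared, since probe sets differ in brightness. Each gene was fitted by group (lmFit, then eBayes; limma 3.58.1, R 4.3.3) with a two-sided test and no covariate, over the 16635 genes at or above the 25th percentile of means, with Benjamini-Hochberg adjustment; intervals are 95%. The script was tested on simulated data. Same-numbered samples were not paired by any label. Tables and figures used Python 3.11.15 and matplotlib 3.10.9.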

Additional observations from a re-analysis of the deposited data

Results flagged for a closer look

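In each group of 4 samples the sample farthest from the others was compared with the range of the group by Dixon's rule, over 62 groups of values (31 genes in 2 groups). F13b in control replicate 2, at 8.53 log2, lay apart from the other controls, which measured 9.29 to 9.37. Hrg in control replicate 1, at 11.14, lay below the other controls, at 11.32 to 11.35. The rule marks about 5% of groups by chance, and it marked 2 of the 62.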

How the results depend on the processing

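Under all 18 alternatives 0 of the 31 genes passed an adjusted p of 0.05 in limma, and the median difference stayed below 0, between -0.12 and -0.05, with -0.09 in the replicate block and -0.12 to -0.06 with single samples left out. The count at an unadjusted p under 0.05 was 1 with the replicate block and 1 to 2 with single samples left out. It was 2 without rilpivirine replicate 3, where F9 joined Serpina10, and 2 without rilpivirine replicates 1 and 2 together, where Thbd did (0.37 log2 higher). Over the 16635 genes tested such counts also moved, from 867 in the main fit to 1071 with the block. They were 1213 without rilpivirine replicate 3, 999 without rilpivirine replicates 1 and 2 together, and 578 to 1524 with single samples left out. The block used replicate numbers shared by the groups; deviations of same-numbered samples correlated at -0.25, 0.46, -0.088 and 0.066, and all calls were as without it. Over all genes limma called 0 after adjustment in each alternative.

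Of 557 values of single genes 41 had the opposite sign, none past the threshold; the cause was not tested. With array weights the log2 differences were F3 -0.012, Serpind1 -0.0069 and Vtn -0.019. After centring of each array the value was Vtn -0.0020. After a further quantile normalization they were Tfpi 0.026 and Habp2 0.024. Without rilpivirine replicates 1 and 2 together they were Fgg 0.045, F13b 0.12, F9 0.14, Pros1 0.040, Vwf -0.040, Tfpi 0.037, Procr 0.018, Serpinf2 -0.032 and Vtn -0.078. With the small nucleolar RNA covariate they were Fgg 0.024, F13b 0.031, Vwf -0.092, F3 -0.084, Serpind1 -0.0075, Serpinf2 -0.014 and Vtn -0.055. With single samples left out the differences ran for Vtn from -0.029 to 0.045, F3 from -0.072 to 0.15, Tfpi from -0.12 to 0.061, F8 from -0.037 to 0.16, Thbd from -0.065 to 0.19 and Serpind1 from -0.029 to 0.034. For the others they ran for Serpina5 from -0.19 to 0.015, F7 from -0.21 to 0.088, Hrg from -0.13 to 0.031, Vwf from -0.070 to 0.17 and Serpinc1 from -0.00016 to 0.055. Signal near the filter limits Serpina5.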
